A study of Mus musculus with 2 samples.

Results

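The tags of 10 genes of the contractile actin cytoskeleton (*Actb*, *Actg1*, *Acta2*, *Tagln*, *Cnn1*, *Cnn2*, *Tpm1*, *Tpm2*, *Myl9* and *Cald1*) were compared between 2 mouse cell lines of spermatogenic origin, out of 14450 genes with at least 1 unambiguous sense tag. The list was chosen by name, with the tag counts of both libraries already known, so the difference between the lines that these genes show was used in choosing them and is given as a description without a test. GC-1spg was derived from type B spermatogonia of a 10-day-old mouse and transformed with pSV3-neo, and GC-2spd (ts) was derived from spermatocytes of a 6-week-old mouse and transformed with SV40 large T antigen. Both are established lines that were grown in the same DMEM medium with 10% fetal bovine serum, and 1 digital gene expression (DGE) tag library was made from each. With 1 library per line, the line and the library cannot be told apart and no replicate check exists. A clean tag is one that passed the filters of the study, an unambiguous sense tag is one that matches the sense strand of 1 gene only, and levels are given as TPM, the tags per 1000000 clean tags of the library. Of each pair of values without a named line, the first is GC-1spg and the second GC-2spd (ts). The intervals given are exact 95% intervals that cover counting error only, and PCR copies of 1 molecule could not be separated from different molecules.

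Actin filaments give a cell its shape and its grip on its surroundings, and myosin II pulls on them when the regulatory light chain of myosin is phosphorylated. Tropomyosins wind along the filament, and caldesmon, calponins and transgelins bind to it, which sets where and how strongly myosin can pull. Several of these genes are classical targets of serum response factor (SRF), which binds a DNA element named the CArG box and works with cofactors of the myocardin family. In the testis the smooth muscle forms are best known from the peritubular myoid cells around the tubules, while germ cells use mostly the cytoplasmic actins.

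In DGE profiling, mRNA held on beads by its poly(A) tail is cut at CATG by the enzyme NlaIII, and the CATG with the next 17 bases is read as a tag. An mRNA is expected to give 1 tag, at the last CATG before the tail, so counts were not divided by transcript length, and incomplete cutting gives tags from sites further upstream. The tag with the most unambiguous sense copies of each gene (for *Tagln*, with sense matches preferred) and a further tag of *Tpm2* are printed here 5′ to 3′ in the direction of the mRNA, with the NlaIII site in capitals. They are shown because each count of these genes rests on 1 or a few such sequences. All coordinates are on GRCm38 and all features are from GENCODE M21.
Actb: CATGccctgagtccaccccgg
Actg1: CATGtggctcggtcacttggg
Acta2: CATGtgctacccttaacttgt
Tagln: CATGggcagctcccacctatc
Cnn1: CATGcctggaaacgcagtgga
Cnn2: CATGacccacacgggcccctg
Tpm1: CATGcccgtagccccttccga
Tpm2, exon 6: CATGgaccaagccctcaagtc
Tpm2, exon 4: CATGaaggatgaggaaaagat
Myl9: CATGtcccttcagaggatgac
Cald1: CATGttctgtgaatctgccat
The tags of *Tpm2* lie in coding sequence and the others in 3′ UTRs. The tags of *Actb* (chr5:142903368-142903388, minus strand), *Actg1* (chr11:120346112-120346132, minus strand), *Myl9* (chr2:156781536-156781556, plus strand), *Cald1* (chr6:34775345-34775365, plus strand) and *Tpm1* (chr9:67022770-67022790, minus strand) start at the last CATG of a transcript. The tags of *Acta2* (chr19:34241517-34241537, minus strand) and *Tagln* (chr9:45930238-45930258, minus strand) start at the third-last CATG, that of *Cnn2* (chr10:79995269-79995289, plus strand) at site 5 and that of *Cnn1* (chr9:22108594-22108614, plus strand) at site 10 from the 3′ end.

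Of the 10 genes, 9 had at least 10 unambiguous sense tags over both libraries, and 7 of these 9 were higher in GC-2spd (ts) by 2-fold or more, which 19.7% of all 11298 genes with that many tags were. None of the 9 was at least 2-fold lower, against 14.6% of all genes. Both shares of all genes are backgrounds only, since the list was selected on the same libraries. The 9 log2 ratios of GC-2spd (ts) over GC-1spg had a median of 1.60, with 0.5 tags added to each count, and the median over all 11298 genes was 0.17. The 9 ratios were positive under each of the 3 scalings that were tried. That could not come out otherwise, since the 2 other scalings shift each ratio alike, by -0.17 and -0.084, and the lowest ratio was 0.95. The number past 2-fold was 6 under TMM scaling, which sets most genes to a common level, and under scaling to the unambiguous sense tags. Each of these 2 leaves *Actb* just inside 2-fold. Of all genes, 16.1% and 17.7% were that much higher under these scalings. The whole counting interval lay above 2-fold for 5 of the 9 genes (*Actg1*, *Acta2*, *Cnn2*, *Myl9* and *Cald1*), and for 9.7% of all genes. Together the 10 genes took 12028 tags, or 0.237% of clean tags, in GC-1spg and 27560 tags, or 0.583%, in GC-2spd (ts). The 2 cytoplasmic actins held most of these tags, and without them the sum was 2074 tags against 7313, with the ratio at 1.92 on the log2 scale (1.85 to 1.99).

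**Figure D1:**
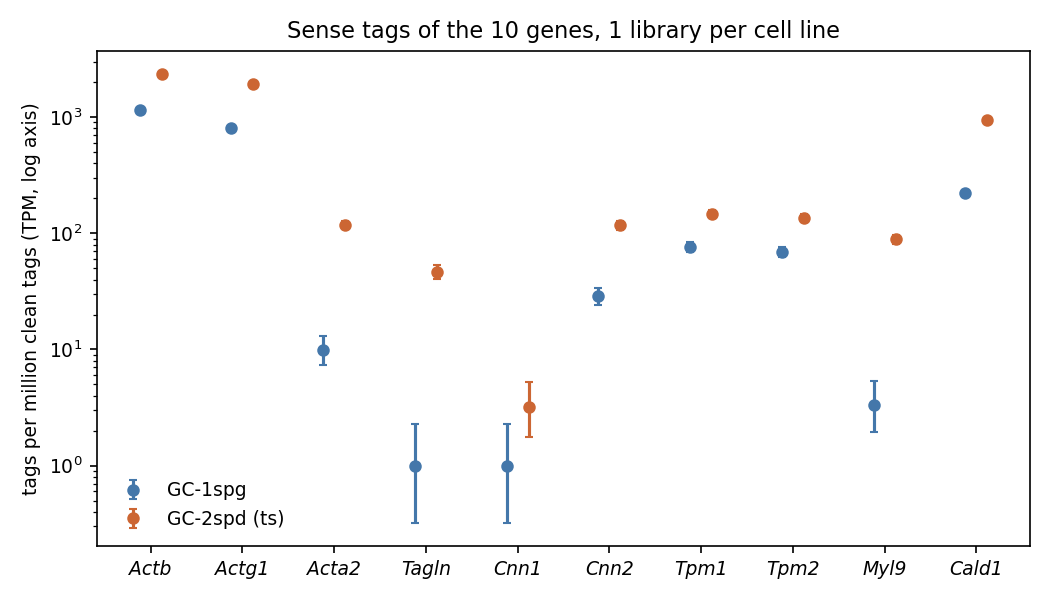
Level of each of the 10 genes in each library, in sense tags per 1000000 clean tags (TPM) on a log axis, with exact 95% Poisson intervals of the count. Tags that also match the antisense strand of another gene are included, which matters only for Tagln, and each gene is higher in GC-2spd (ts), from 75.9 and 146 TPM for Tpm1 to 0.986 and 46.3 TPM for Tagln.

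The cytoplasmic actins were the most abundant of the 10 genes in both lines. *Actb*, which encodes β-actin, had 5827 tags in GC-1spg (1149 TPM) and 11065 tags in GC-2spd (ts) (2341 TPM), and by tag count it ranked 31 and 6 among all genes. Its log2 ratio of 1.03 (0.98 to 1.07) was the closest above the 2-fold limit, and it was 0.85 under TMM scaling. Antisense tags of *Actb* outnumbered its unambiguous sense tags, with 10682 copies in GC-1spg and 13859 copies in the other library. They did not outnumber its sense tags once those shared with other genes were counted (11570 and 24732). With the unambiguous tags of both strands counted, the log2 ratio was 0.70. *Actg1*, which encodes γ-actin, had 4127 tags (814 TPM) in GC-1spg against 9182 tags (1943 TPM) in GC-2spd (ts), with the ratio at 1.26 on the log2 scale (1.20 to 1.31). The intervals of the 2 genes did not overlap, but this rests on leaving out sense tags shared with other genes, and with them the intervals overlapped, with log2 ratios of 1.20 (1.17 to 1.23) for *Actb* and 1.21 (1.15 to 1.26) for *Actg1*. *Actb* is widely used as a loading or reference gene, and in these libraries its share of clean tags was 2.04-fold higher (1.97 to 2.10) in GC-2spd (ts).

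*Acta2*, the α-actin of smooth muscle, had 50 tags (9.86 TPM) in GC-1spg against 555 tags (117 TPM) in GC-2spd (ts). This was an 11.9-fold difference with an interval of 8.91 to 16.2, far outside those of both cytoplasmic actins. Within the unambiguous actin tags of a library, *Acta2* took 0.50% (0.371 to 0.658) in GC-1spg against 2.67% (2.45 to 2.89) in GC-2spd (ts). The share of *Actb* was 58.2% in GC-1spg against 53.2% in GC-2spd (ts), and that of *Actg1* was 41.2% and 44.1%. These 2 shares leave out sense tags shared with other genes, 5743 and 13667 copies for *Actb* but 496 and 751 for *Actg1*. Their differences between the libraries rest on that, since the 2 ratios were alike with shared tags counted. The difference in share of *Acta2* rests on a site upstream of the last CATG, and with the 3′-most site alone the difference was 0.0148 percentage points in place of 2.17. With that site alone *Acta2* had no tag in GC-1spg and *Cnn1* none in either library, so neither had a ratio. The other muscle actins were near the limit of detection, with 0 and 3 tags for *Acta1* (skeletal), 3 and 4 for *Actc1* (cardiac) and 0 and 2 for *Actg2* (enteric smooth muscle), in GC-1spg and GC-2spd (ts).

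Part of the actin signal could not be given to 1 gene because actin coding sequences are nearly alike. The tag shown next crosses an exon junction of both *Actb* and *Acta2* and also matches 6 further genes.
Shared actin tag: CATGaagatcaagatcattgc
It had 5145 copies in GC-1spg against 12421 copies in GC-2spd (ts), with the ratio at 1.37 on the log2 scale (1.33 to 1.42), and it is left out of the counts of both genes. The *Actb* tag in the 3′ UTR had 5493 and 10304 copies. Its log2 ratio of 1.01 (0.96 to 1.06) lay below the interval of the shared tag. The unambiguous *Acta2* count does not depend on the shared tag, since 542 of its 555 tags in GC-2spd (ts) and all 50 in GC-1spg came from the *Acta2* 3′ UTR tag.

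*Myl9*, the regulatory light chain of smooth muscle and non-muscle myosin II, was low in GC-1spg with 17 tags (3.35 TPM) and had 419 tags (88.6 TPM) in GC-2spd (ts). The fold difference was 26.4 (16.3 to 45.8), and 97.9% of all tested genes had a lower log2 ratio. Of these tags, 17 and 417 were the single 3′ UTR tag shown for *Myl9*. The closely related light chain gene *Myl12a* had 3094 and 6782 tags, with the ratio at 1.23 on the log2 scale (1.17 to 1.30), and *Myl12b* had 577 and 405 tags, with the ratio at -0.41 on the log2 scale (-0.60 to -0.22). The share of *Myl9* among the tags of the regulatory light chains was 0.456% (0.266 to 0.730) in GC-1spg against 5.51% (5.01 to 6.05) in GC-2spd (ts), so *Myl12a* remained the main regulatory chain in both libraries. The atrial chain *Myl7* had 37 tags in GC-1spg and was not listed in GC-2spd (ts). The essential light chain *Myl6* had 1094 and 948 tags, with the ratio at -0.10 on the log2 scale, but this turned to 2845 and 5101 tags and 0.94 (0.88 to 1.01) when pseudogene transcripts were left out of the reference.

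*Cald1* encodes caldesmon, which binds actin, tropomyosin and myosin and restrains their interaction. It had 1120 tags (221 TPM) in GC-1spg against 4431 tags (937 TPM) in GC-2spd (ts), a 4.25-fold difference (3.98 to 4.54) that placed it at rank 389 and rank 45 by tag count. The same 3′ UTR tag gave 89.7% of its tags in GC-1spg against 89.1% in GC-2spd (ts), and it is held by 5 of the 18 annotated transcripts. The counts therefore do not separate the short and the long forms of caldesmon. Apart from the cytoplasmic actins, *Cald1* was the most abundant of the 10 genes in both lines.

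The tropomyosins *Tpm1* and *Tpm2* had the lowest ratios of the list in these counts, not separated from *Actb* by counting error, and *Actb* was lower than both with both strands counted. *Tpm1* had 385 tags (75.9 TPM) in GC-1spg against 691 tags (146 TPM) in GC-2spd (ts), with the ratio at 0.95 on the log2 scale (0.76 to 1.13). *Tpm2* had 351 tags (69.2 TPM) and 646 tags (137 TPM), with the ratio at 0.98 on the log2 scale (0.79 to 1.17). Both lay just inside the 2-fold limit, and their intervals held it. *Tpm4*, a tropomyosin of non-muscle cells that is not in the list, had 877 and 2657 tags, with the ratio at 1.70 on the log2 scale (1.59 to 1.81) that lay above the intervals of both. The share of *Tpm4* among unambiguous tropomyosin tags was 54.2% in GC-1spg against 66.4% in GC-2spd (ts), that of *Tpm1* was 23.8% and 17.3%, and that of *Tpm2* was 21.7% and 16.1%. These shares leave out almost all tags of *Tpm3*, since its near-identical copy *Tpm3-rs7* shares 1700 tags in GC-1spg against 1908 in GC-2spd (ts), with the ratio at 0.27 on the log2 scale.

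Tropomyosin genes make many proteins by alternative exons, and the tags of *Tpm2* did not differ between the libraries to the same extent. The tag in exon 6 of 9 (chr4:43519025-43519045, minus strand), which 3 of the 6 annotated transcripts hold, had 155 copies in GC-1spg against 440 copies in GC-2spd (ts), with the ratio at 1.61 on the log2 scale (1.34 to 1.88). The tag in exon 4 (chr4:43519459-43519479, minus strand), which 5 of the 6 transcripts hold, had 152 copies and 184 copies, with the ratio at 0.38 on the log2 scale (0.06 to 0.70). The intervals of the 2 tags were far apart. The share of the exon 6 tag among *Tpm2* tags was 44.2% (38.9 to 49.5) in GC-1spg against 68.1% (64.4 to 71.7) in GC-2spd (ts), while that of the exon 4 tag was 43.3% (38.1 to 48.7) and 28.5% (25 to 32.1). Every transcript with the exon 6 tag also holds the exon 4 tag upstream of it. A tag in the last exon (chr4:43514900-43514920, minus strand), found in 2 transcripts, had 32 copies in GC-1spg against 11 in GC-2spd (ts), with the ratio at -1.44 on the log2 scale (-2.58 to -0.41). It is shown because it was the 1 tag of *Tpm2* with over 9% of the copies in either line that was lower in GC-2spd (ts).
Tpm2, exon 9: CATGgttcccttccctcctgt
With only the site nearest the 3′ end of each transcript counted, the log2 ratio of *Tpm2* was 1.28, and the cause of the unequal tags was not tested.

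The tags of *Tpm1* were more alike. Its 4 tags with at least 10% of the copies had log2 ratios that overlapped in their intervals, from 0.68 (0.27 to 1.09) for a second 3′ UTR tag to 1.15 (0.85 to 1.46) for the 3′ UTR tag shown for *Tpm1*. Both tags are held by the same 10 of 21 transcripts, and a coding tag held by 19 of them was at 0.86 (0.29 to 1.45). That 3′ UTR tag made up 35.1% (30.3 to 40.1) of the *Tpm1* tags in GC-1spg against 40.4% (36.7 to 44.1) in GC-2spd (ts). A tag found only in the transcript Tpm1-201, which ends in another last exon, had 27 copies and 40 copies, with the ratio at 0.67 on the log2 scale (-0.07 to 1.43). Antisense tags of *Tpm1*, which were not counted, numbered 511 in GC-1spg and 924 in the other library, more than the sense tags of each. A last tag, named after its value was seen, lies in the 3′ UTR of Tpm1-208, Tpm1-209 and Tpm1-210 and had 0 and 12 copies.

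Calponins and transgelins, which share the calponin homology fold and bind along the filament, are described together. *Cnn2*, the calponin of non-muscle and smooth muscle cells, had 146 tags (28.8 TPM) in GC-1spg against 553 tags (117 TPM) in GC-2spd (ts), a 4.06-fold difference (3.38 to 4.91). *Cnn1*, the basic calponin of differentiated smooth muscle, had 5 tags and 15 tags, all copies of 1 sequence. Its log2 ratio of 1.69 came with an interval of 0.15 to 3.50 and is the least certain of the 9. *Cnn3*, the acidic calponin, was the most abundant calponin in both lines, with 1537 and 1692 tags and a log2 ratio of 0.24 (0.14 to 0.34). The share of *Cnn2* among calponin tags was 8.65% (7.35 to 10.1) in GC-1spg against 24.5% (22.7 to 26.3) in GC-2spd (ts), and that of *Cnn3* was 91.1% and 74.9%. With the 3′-most site alone the share of *Cnn2* differed by 0.719 percentage points in place of 15.8, since its main tag is further upstream.

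*Tagln*, which encodes transgelin (SM22α), had 0 unambiguous sense tags in GC-1spg against 3 in GC-2spd (ts), because its 3′ UTR overlaps an antisense gene, *Gm48529*. When a sense match was preferred over an antisense match, *Tagln* had 5 tags (0.986 TPM) in GC-1spg against 219 tags (46.3 TPM) in GC-2spd (ts), a 47.0-fold difference (19.8 to 146). Of these, 5 and 209 were copies of the tag shown for *Tagln*. With that preference 10 of the 10 genes had at least 10 tags, 8 were higher in GC-2spd (ts) by 2-fold or more, against 19.5% of 11899 genes, and 0 were at least 2-fold lower, against 14.7%. The widely expressed relative *Tagln2* had 3951 tags in GC-1spg against 2482 in GC-2spd (ts), with the ratio at -0.57 on the log2 scale (-0.64 to -0.50). That direction rests on the allowance of 1 mismatch, since 3902 of its copies in GC-1spg were of 1 sequence that differs from the reference by 1 base and was not listed in GC-2spd (ts), and exact matches alone gave 40 and 2456 tags. With sense matches preferred, *Tagln* took 0.126% (0.0411 to 0.295) of transgelin tags in GC-1spg against 8.10% (7.10 to 9.20) in GC-2spd (ts). With exact matches alone the direction was not kept, since *Tagln* then took 5 of 45 transgelin tags in GC-1spg (11.1%, 3.71 to 24.1) and 219 of 2677 in the other library (8.18%, 7.17 to 9.28), with overlapping intervals.

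**Figure D2:**
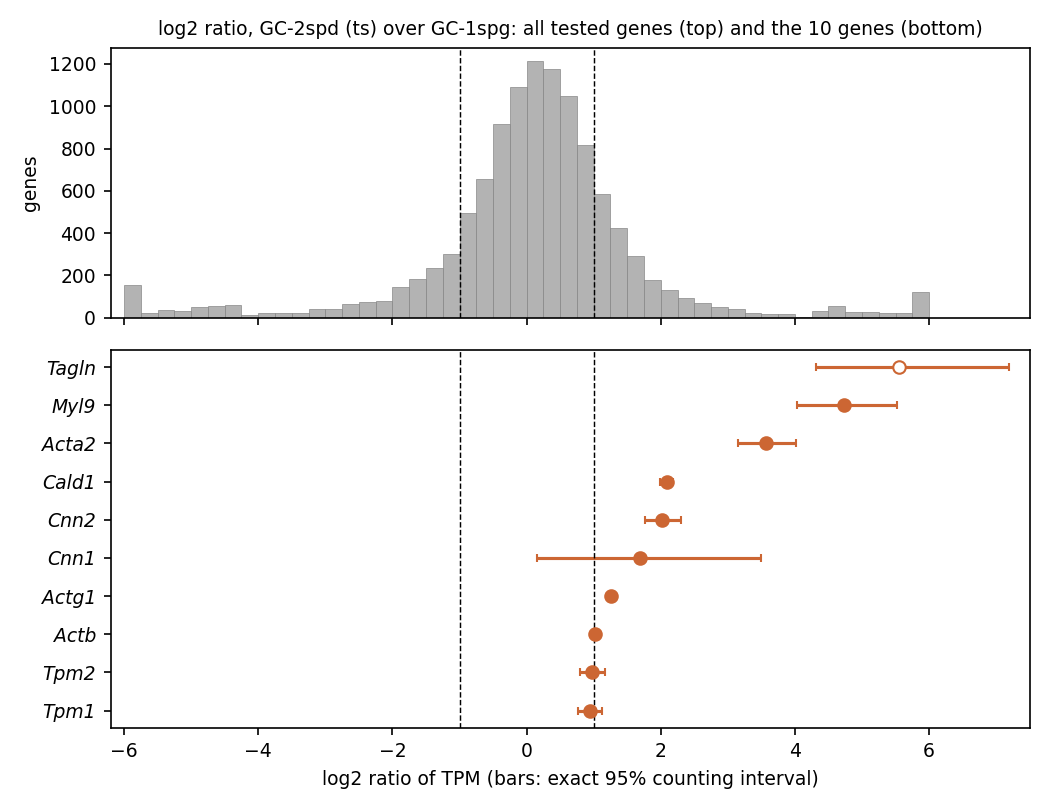
The upper panel counts all genes with at least 10 tags by log2 ratio of GC-2spd (ts) over GC-1spg, in steps of 0.25 with 0.5 tags added and with genes beyond 6 in the outermost bars, and the lower panel gives the ratio of each of the 10 genes with its exact 95% counting interval. Dashed lines mark 2-fold, and the open circle is Tagln with sense matches preferred over antisense matches, at 5.55, while Tpm1 and Tpm2 lie just inside 2-fold at 0.95 and 0.98.

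**Figure D3:**
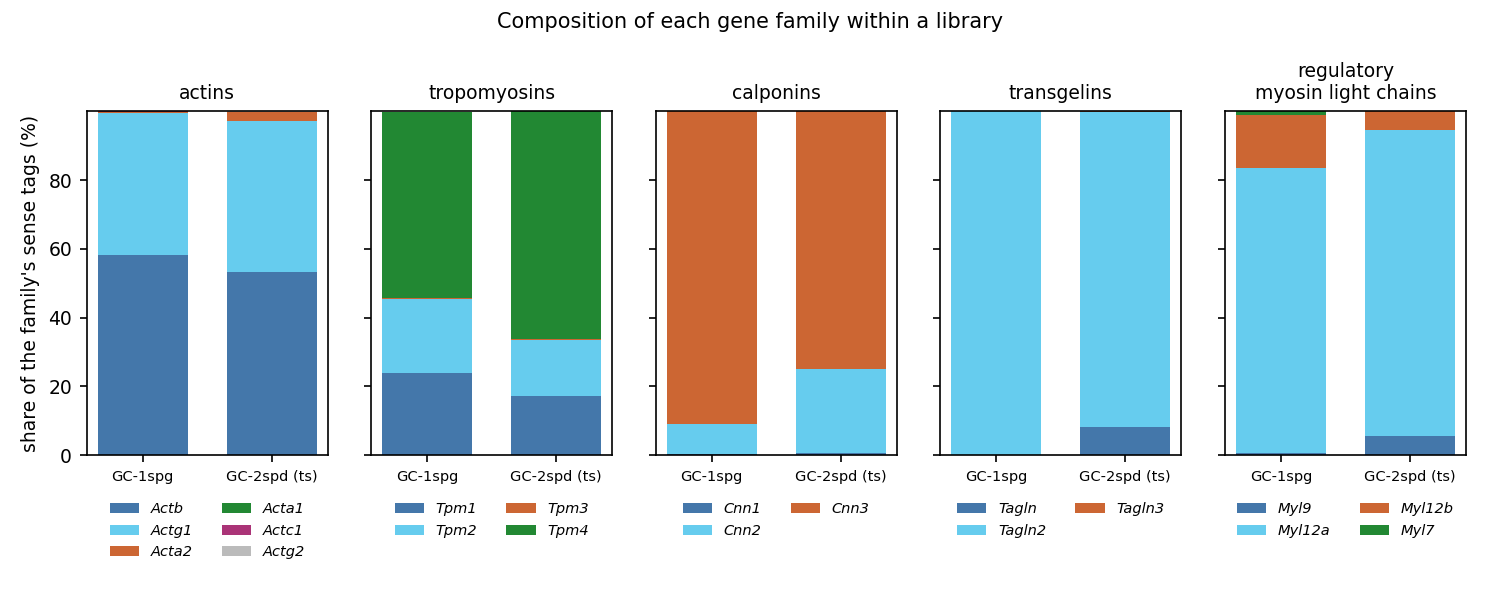
Stacked bars give the share in percent of each gene among the sense tags of its family within a library, with sense matches preferred over antisense matches. Tags that match the sense strand of more than 1 gene are left out. Acta2, Cnn2 and Myl9 take larger shares in GC-2spd (ts) than in GC-1spg (Acta2 2.67% against 0.50%, Myl9 5.51% against 0.456%), the shares of Tpm1 and Tpm2 are smaller there, and the larger share of Tagln turns to 8.18% against 11.1% with exact matches alone.

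The order of the 10 genes by ratio was not their order by abundance. In GC-1spg the tag counts fell in the order *Actb*, *Actg1*, *Cald1*, *Tpm1*, *Tpm2*, *Cnn2*, *Acta2*, *Myl9*, with *Cnn1* and *Tagln* last, and *Tpm1* and *Tpm2* (385 and 351 tags) did not differ beyond counting error. The library of GC-2spd (ts) held *Acta2* and *Cnn2* at the same level (555 and 553 tags), with *Myl9* (419) below them, and the order was otherwise the same but for *Tagln* (219), which stood above *Cnn1* (15). The genes with the largest ratios (*Tagln*, *Myl9* and *Acta2*) were among the 4 genes with the fewest tags in GC-1spg, all of them below 10 TPM there, and each stayed a minor member of its family in GC-2spd (ts). The GC-1spg level is the denominator of the ratio, so few tags there and a large ratio are not separate observations. The abundant genes *Actb*, *Actg1*, *Tpm1* and *Tpm2* differed by 1.93-fold to 2.39-fold, while *Cald1*, also abundant, differed by 4.25-fold. Among single tags with at least 10 copies over both libraries and at least 1 listed copy number in each, 31 of 34 unambiguous sense tags of the 10 genes had the higher TPM in GC-2spd (ts), and 21 of 34 by more than 2-fold. Of all 22816 such tags of all genes, 57.9% had the higher TPM there and 21.7% by more than 2-fold. The 34 tags belong to the counts that were known when the list was chosen, and tags of 1 gene are not independent. Both shares of all tags are therefore backgrounds only.

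**Figure D4:**
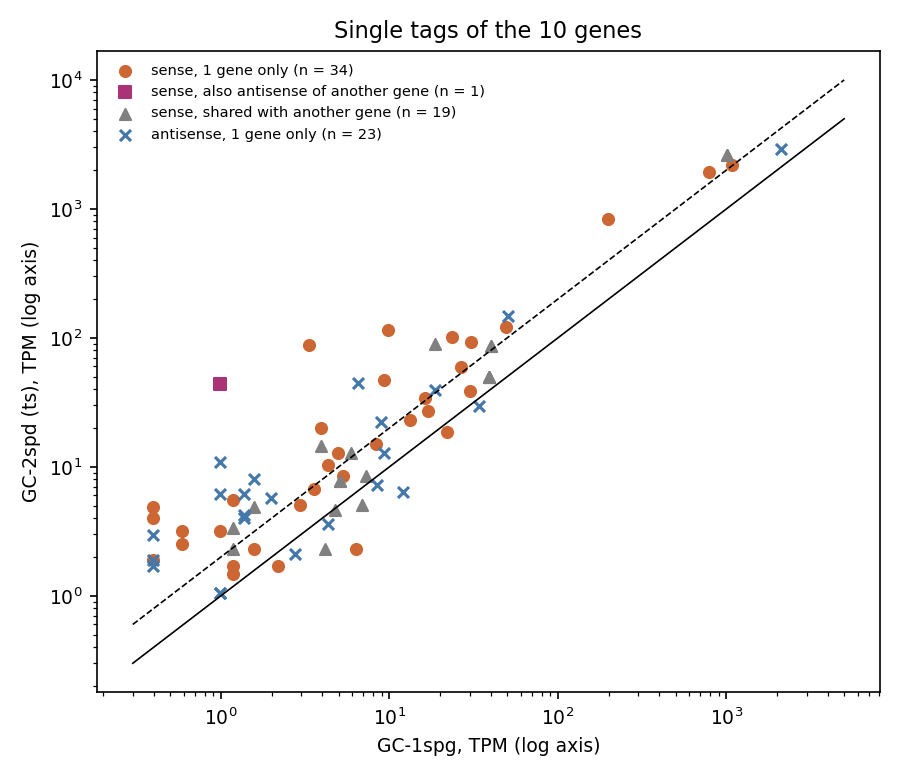
Each point is 1 tag of 1 of the 10 genes, together with copies that differ from it by 1 base. The horizontal axis gives its TPM in GC-1spg and the vertical axis that in GC-2spd (ts), both logarithmic. Plotted are tags listed in both libraries with at least 10 copies in all. A tag that several of the 10 genes share is plotted once for each, and copies of a tag in different legend groups are separate points. The solid line is equality and the dashed line 2-fold, 31 of the 34 unambiguous sense tags lie above equality (57.9% of such tags of all genes), and the antisense tag farthest to the right is that of Actb at 2095 and 2905 TPM. The share of all genes is a background only, since the counts of the 10 genes were known when they were chosen.

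The regulators of these genes were examined next. *Srf* itself had 84 tags in GC-1spg against 248 in GC-2spd (ts), with the ratio at 1.66 on the log2 scale (1.30 to 2.04). Its actin-sensitive cofactors *Mrtfa* and *Mrtfb* had 121 and 178 tags (log2 ratio 0.66) and 17 and 31 tags (0.97), while *Myocd*, the smooth and cardiac muscle cofactor, was not listed in either library. Of the ternary complex factors, which compete with them for SRF, *Elk1* had 31 and 71 tags (1.30), *Elk3* 92 and 163 tags (0.93) and *Elk4* 288 and 206 tags (-0.38). Of these 7 genes, 6 had at least 10 tags, 2 were higher in GC-2spd (ts) by 2-fold or more (19.7% of all genes) and 0 were at least 2-fold lower (14.6%).

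Promoter sequences around the start of the gene, from 250 bases before to 50 bases after it, were available from RefSeq (GRCm38.p6) for 8 of the 10 genes, not for *Actb* and *Tagln*. An exact CArG box, a motif of 10 bases that reads as the same motif on both strands, was found in the windows of 3 of these 8 genes, *Actg1*, *Cnn2* and *Myl9*. Of all 32851 promoter windows, 535 (1.63%) held a box. That share is a background only, since the list was drawn up as SRF-driven and smooth muscle genes. It also counts windows, of which the 8 genes had 9. The stretches around the boxes are shown because these are the sites that SRF is known to read in genes of this kind, and *Srf*, whose own window held 2 boxes, is shown for comparison. Capitals mark the box.
Actg1: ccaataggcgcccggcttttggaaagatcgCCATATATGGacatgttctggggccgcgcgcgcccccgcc
Cnn2: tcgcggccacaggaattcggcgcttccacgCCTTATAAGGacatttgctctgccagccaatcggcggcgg
Myl9: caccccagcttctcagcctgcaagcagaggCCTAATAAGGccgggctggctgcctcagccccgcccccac
Srf: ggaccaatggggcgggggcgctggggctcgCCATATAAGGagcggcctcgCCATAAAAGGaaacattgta
These stretches lie at chr11:120348546-120348615 (minus strand), chr10:79988514-79988583 (plus strand), chr2:156775273-156775342 (plus strand) and chr17:46556205-46556274 (minus strand). The box starts 90 bases before the transcription start in *Actg1*, 56 in *Cnn2* and 161 in *Myl9*, and 82 and 62 bases before it in *Srf*. The windows of *Acta2*, *Cald1*, *Cnn1*, *Tpm1* and *Tpm2* held no exact box, which says only that these letters are absent from this stretch. The 3 genes with a box had log2 ratios of 1.26, 2.02 and 4.73, and the 5 without one had 0.95 to 3.57, so the ratios of both kinds overlapped.

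Other smooth muscle and SRF-responsive genes of the cytoskeleton did not share 1 direction. Of 22 such genes, 18 had at least 10 tags, 8 were higher in GC-2spd (ts) by 2-fold or more and 3 were at least 2-fold lower, with a median log2 ratio of 0.58 (0.17 over all genes, of which 19.7% were as much higher and 14.6% as much lower). The largest ratios among those with at least 100 tags belonged to the LIM proteins *Fhl1* (20 and 267 tags, 3.84) and *Fhl2* (71 and 326 tags, 2.30), and to *Tgfb1i1* (Hic-5, 69 and 245 tags, 1.93). The 3 lower genes, named after their values were seen, were *Myh10*, a heavy chain of non-muscle myosin II (1438 and 373 tags, -1.85), *Csrp1*, a LIM protein of smooth muscle (3404 and 1081 tags, -1.55), and *Des*, the muscle intermediate filament desmin (11 and 4 tags, -1.36). The count of 8 included *Vcl* (vinculin) with 4 and 10 unambiguous tags, which had 752 and 602 tags (-0.22) once sense matches were preferred over antisense ones.

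Of the 19 genes that handle actin monomers, filament ends and branches, 18 had at least 10 tags, 4 were higher in GC-2spd (ts) by 2-fold or more, a share near the 19.7% of all genes, and 1 was at least 2-fold lower (14.6% of all genes), with a median log2 ratio of 0.38. TMM scaling gave 2 and 2, against 16.1% and 17.6% of all genes. The profilins, which feed monomers to the growing end, went opposite ways, with 3551 and 1475 tags for *Pfn1* (-1.17) and 32 and 180 tags for *Pfn2* (2.59). *Arpc5*, a subunit of the Arp2/3 complex that starts filament branches, had 139 and 319 tags (1.30), or 0.98 with exact matches alone. Of the 13 other genes of the same families as the list, 9 had at least 10 tags, and 3 were at least 2-fold higher and 1 lower in GC-2spd (ts), beside 19.7% and 14.6% of all genes.

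**Figure D5:**
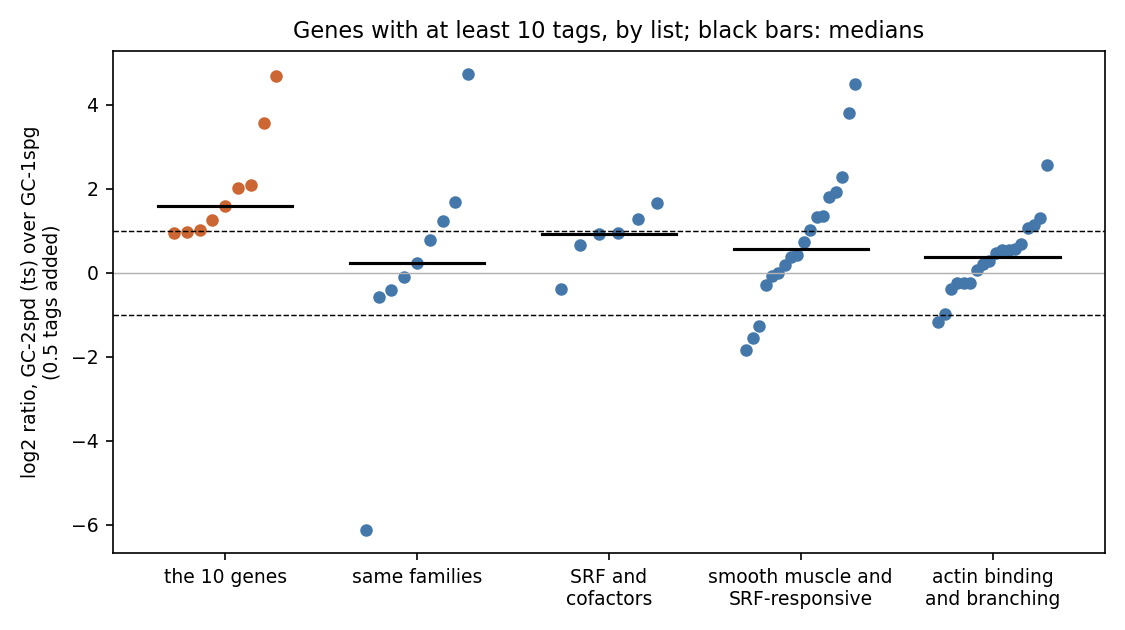
Each point is 1 gene with at least 10 tags, its log2 ratio of GC-2spd (ts) over GC-1spg with 0.5 tags added on the vertical axis, sorted within each gene list, with medians as black bars and 2-fold as dashed lines. The 10 genes described here, of which 9 are plotted, lie between 0.94 and 4.68 with a median of 1.60, and the medians of the other lists are 0.24, 0.94, 0.58 and 0.38 from left to right.

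Markers of the cell types that such lines could hold or resemble were read beside these counts. Of 12 germ cell markers, only *Tdrd1* was listed by unambiguous sense tags, with 0 tags in GC-1spg against 4 in GC-2spd (ts), so the germ cell origin in the labels was not visible in these markers, and *Ddx4*, *Dazl*, *Kit*, *Stra8* and *Sycp1* were at 0 in both. With sense matches preferred, *Sycp3* also had 2 tags in GC-1spg. The 9 markers of peritubular myoid or smooth muscle cells summed to 184 tags (36.3 TPM) in GC-1spg against 682 tags (144 TPM) in GC-2spd (ts). Of this sum, 50 and 555 tags were *Acta2* and 5 and 15 were *Cnn1*, both genes of the list, while *Smtn* had 118 and 90 tags, *Des* 11 and 4, *Lmod1* 0 and 10, *Synpo2* 0 and 4 and *Myh11* 0 and 2. The 9 fibroblast markers summed to 15250 tags in GC-1spg against 7636 in GC-2spd (ts), with *Col1a1* at 10465 and 2425 and *Vim* at 984 and 2897, and the 7 striated muscle markers to 6 and 15. The 6 Sertoli cell markers summed to 683 and 184 tags, of which *Wt1* had 620 and 0. The direction of this sum rests on *Wt1*, since the other markers together had more tags in GC-2spd (ts) than in GC-1spg. Among the 3 Sertoli cell markers with at least 10 tags, 1 was past 2-fold upward, 1 downward and 1 was inside it. Their median log2 ratio was 0.76. The 6 Leydig cell markers summed to 4 and 5 tags. Among these lists *Lum* and *Thy1* of the fibroblasts, *Cldn11* and *Rhox5* of the Sertoli cells and *Myocd* of smooth muscle were at 0 in both libraries. Of the Leydig cell markers only 2 of 6 had any tag, and of the striated muscle markers only 4 of 7. The part that other cell types had in the counts of the 10 genes was not tested.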

How the data were processed

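DGE tags were read from 1 library of GC-1spg and 1 of GC-2spd (ts). Adaptor tags, tags of low quality and tags seen once were filtered out by the authors, who deposited for each remaining (clean) tag its sequence, its count and its TPM, which is the count per 1000000 clean tags. They matched tags to mouse UniGene clusters from the NCBI, which were not used here, and their matching program was not given in the sources used here. Clean tags numbered 5072149 (1 copy is 0.197 TPM) and 4726808 (0.212 TPM).

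Tags were matched to CATG sites of GENCODE M21 transcripts (GRCm38) with at most 1 mismatch, exact matches first. Sense tags of 1 gene only were summed per gene (54.7% and 57.9% of clean tags) and scaled to all clean tags. The ratio was the TPM of GC-2spd (ts) over that of GC-1spg, with Clopper-Pearson intervals at 95% from the conditional binomial. A gene was past the limit at a 2-fold ratio with 0.5 tags added and at least 10 tags in all. The quasi-likelihood test of edgeR needs replicates and could not be fitted, so edgeR served only for TMM factors. The matching and intervals were tested on simulated data. These held only tags of 1 gene and Poisson counts, so they say nothing about shared tags or PCR copies. Alternatives covered matching, sites, transcripts, strand, scaling, added tags and minimum.

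Named were the 10 genes, their family members, SRF and its cofactors, tags with at least 10% of a gene's copies, and in each of the remaining lists the 3 largest absolute ratios among genes with at least 100 tags. Among the additions outside these rules were the last-exon tag of *Tpm2* and the tag of Tpm1-201, each below 10% of the copies. The genes and the tag said to be named after their values were seen were also additions. The genes and lists were chosen with earlier results of these data known. Python 3.11.15 (numpy 2.4.6, scipy 1.17.1, matplotlib 3.10.9) and R 4.3.3 (edgeR 4.0.16) were used.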

Additional observations from a re-analysis of the deposited data

Results flagged for a closer look

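Antisense tags, which the counts above leave out, outnumbered the unambiguous sense tags for 3 of the 10 genes. *Actb* had 10682 antisense against 5827 sense tags in GC-1spg and 13859 against 11065 in GC-2spd (ts), and 10626 and 13731 of the antisense copies were 1 sequence at chr5:142903462-142903482, in the 3′ UTR. *Tpm1* had 511 antisense against 385 sense tags in GC-1spg and 924 against 691 in GC-2spd (ts), of which 255 and 693 were 1 sequence at chr9:67023102-67023122, also in the 3′ UTR. *Tagln* had 7 antisense against 3 unambiguous sense tags in GC-2spd (ts), but 219 sense tags there with sense matches preferred.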

How the results depend on the processing

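The log2 ratios of the 9 genes with a ratio were positive in 79 of 79 alternative values that could be formed (*Acta2* and *Cnn1* have none with the site nearest the 3′ end only), 71 of which lay within the counting interval. The 8 others were *Actb* (0.70 with sense and antisense together, 0.85 with TMM scaling, 0.94 with scaling to unambiguous sense tags), *Actg1* (1.08 with TMM, 1.17 with unambiguous sense tags), *Cald1* (1.91 with TMM), *Cnn2* (2.42) and *Tpm2* (1.28), the last 2 with the site nearest the 3′ end only. TMM shifted each log2 ratio by -0.17 and scaling to unambiguous sense tags by -0.084. Neither shift could turn a sign, since the smallest ratio as reported was 0.95, and several matching settings returned the same counts. The genes were also chosen with these counts known, so the 79 positive signs are a description only. *Tagln* in GC-2spd (ts) had 219 tags with sense preferred, 5 with the 3′-most site and 10 with antisense included, against 3. Over all genes, 2230 were higher and 1648 lower, which became 3433 and 3066 with no minimum, 1171 and 618 with at least 100 tags, and 1096 and 907 with the whole interval beyond 2-fold. The difference in family share, GC-2spd (ts) minus GC-1spg in percentage points, was 2.17 for *Acta2* (0.0148 with the 3′-most site only, 1.82 with antisense included), 15.8 for *Cnn2* (0.719 with the 3′-most site only) and -5.55 for *Tpm2* (-2.78 with the 3′-most site only). Chosen after seeing the data, exact matches alone turned the share of *Tagln* among transgelins from 7.98 to -2.93, and counting shared sense tags gave 1.20 for *Actb* and 1.21 for *Actg1*. The main tags of *Acta2* and *Cnn2* are not at the 3′-most site, so that setting drops them, and the other causes were not tested. Depth limits *Cnn1* and *Tagln* in GC-1spg, with 5 tags each at most. No paired analysis was possible because each line has 1 library.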
